A study of Mus musculus with 18 samples.

Results

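Chemokines and their receptors were followed through the formation of mouse blood cells from embryonic stem cells and through the reprogramming of fibroblasts. The group was taken by gene name, as every gene called Ccl, Cxcl, Ccr or Cxcr with a number together with Cx3cl1 and Cx3cr1. The rule found 50 genes among the 20066 gene names of the table of stages and the same 50 among the 20268 names of the fibroblast table, 32 of them ligands and 18 receptors. In the stages, the ES cell line of strain 129 carried a GFP reporter of Brachyury and was grown on mouse embryonic fibroblasts (MEFs), then differentiated in embryoid bodies. ESC are the undifferentiated cells, MES are mesoderm sorted as Bry-GFP+ FLK1-, HB are hemangioblasts sorted as Bry-GFP+ FLK1+, HP are hematopoietic progenitors sorted as CD41+, and MAC are macrophages obtained as CD11b+ cells by further differentiation of CD41+ cells. The libraries of the second experiment came from MEFs of embryonic day 14.5, labelled as strain 129, that were left untreated (uFIB) or given the factors Scl (the older name of TAL1) and Lmo2 (SL), Scl, Fli1, Gata2 and Lmo2 (SFGL) or Fli1, Gata2 and Lmo2 (FGL), and were collected at day 12 or at day 21. Per the methods, MEFs for reprogramming were depleted of CD45, CD41, CD31 and CD117 positive cells by sorting. They then received lentiviral vectors and were kept in medium with hematopoietic cytokines. The methods do not say which of these steps applied to the untreated MEFs. The methods name lentiviral vectors for Fli1, Gata2 and Lmo2, with doxycycline added in some cases to induce Scl. The labels state that wild-type MEFs and MEFs with a doxycycline-inducible TAL1 cassette driven by rtTA were both used, without saying which library came from which.

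Chemokines are small secreted proteins that guide the movement of cells along a gradient and are named after the spacing of their first cysteines (CC, CXC and CX3C). They act through G protein-coupled receptors on the responding cell. CC ligands such as Ccl2 and Ccl3 mainly draw monocytes and macrophages, CXC ligands with an ELR motif such as Cxcl1 and Cxcl2 draw neutrophils through Cxcr2, and Cxcl12, made by stromal cells, holds hematopoietic cells in their niche through Cxcr4. Cxcr7 also binds Cxcl12 and acts largely as a scavenger.

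Expression was measured as FPKM, the number of sequenced fragments per kilobase of transcript, scaled to the mapped fragments of the library, so that levels of genes of different length within a table can be set side by side. Each stage has 1 value per gene, in which the authors combined 2 replicates, and each MEF condition has 1 library per day. No difference below therefore has a replicate check or a test. A gene is called higher or lower where log2(FPKM + 1) differed by at least 1, and in MEFs where it did so in the same direction on both days. The share of all genes called in the same way is given beside the main count of each comparison. Counts under alternative settings have no such share beside them, so that they cannot be set against all genes. A value of 0 is given as listed, and the stages hold no depth from which to set a limit on it. In bulk RNA, fewer cells of a type and less RNA per cell cannot be told apart. Among the markers, Pou5f1, Nanog and Zfp42 summed to 541 FPKM in ESC and 0.172 in MAC, and 7 macrophage genes such as Csf1r and Emr1 summed to 1806 FPKM in MAC and to between 1.62 and 19.5 in the other stages. The RNA of the factors did not follow the labels in full. In FGL, labelled without Scl, Tal1 was 7.04 FPKM at day 12, against 0.0414 in uFIB and 62.0 in SL. At day 21 Tal1 was 0.0705 in FGL, against 0.415 in uFIB and 347 in SL. Fli1 in FGL was 8.29 at day 12 and 3.35 at day 21, against 3.43 and 3.02 in uFIB. Lmo2 and Gata2 in FGL were above uFIB on both days. SL, labelled without Fli1 and Gata2, had 46.7 and 68.8 FPKM of these at day 12, against 3.43 and 1.80 in uFIB. FPKM does not separate RNA of a supplied factor from that of the cell's own gene.

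More of these genes were expressed in HP and MAC than in the earlier stages. Of the 50 genes, between 5 and 8 reached 1 FPKM in ESC, MES and HB, 14 did in HP and 20 did in MAC. In ESC or MES, 8 of the 50 reached 1 FPKM, beside 10606 of all 20066 genes. In HB or HP, 17 did, beside 10505 of all genes. In HP or MAC, 24 did, beside 10819 of all genes. The share of the group was thus below that of all genes in each of these pairs of stages, and closest to it where MAC was included. The summed FPKM of the ligands stayed between 10.2 and 46.7 from ESC to HP, and it was 6416 in MAC, which was 1.68% of all FPKM of the table. The summed receptors had a different order, with 2.87 at the ESC stage, 6.92 at MES, 44.3 at HB, 12.4 at HP and 438 at MAC. Thus HB carried more receptor than ligand RNA per transcript length, and it was the only stage of the 5 that did. At 0 in every stage were 6 genes, Ccl1, Ccl11, Ccl19, Ccl26, Cxcl9 and Cxcl13.

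**Figure D1:**
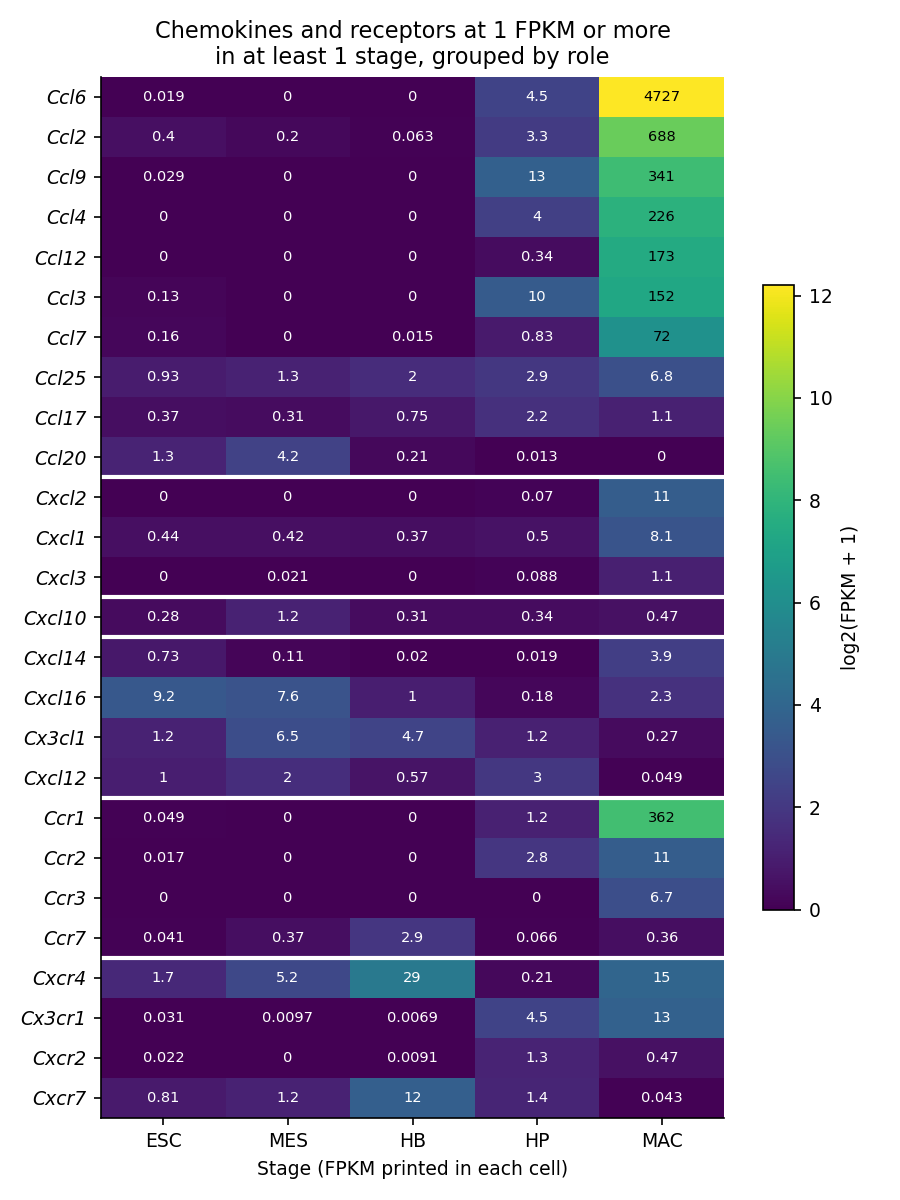
Heat map of the chemokine and receptor genes reported here with 1 FPKM or more in at least 1 stage, in rows grouped by role from CC ligands at the top to CXC and CX3C receptors at the bottom, and stages in columns. Colour is log2(FPKM + 1) and each cell carries its FPKM. The MAC column holds the highest CC ligands and CC receptors, up to 4727 FPKM for Ccl6, whereas Cxcr4 and Cxcr7 stand out in HB.

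At the first step, from ESC to MES, 3 of 50 genes were higher and 0 were lower, against 3.67% higher and 3.86% lower among all genes, so that the count of higher genes is not far from the background. Cxcr4, the receptor of Cxcl12, was 1.68 FPKM at the ESC stage, 5.21 at MES, 29.3 at HB, 0.209 at HP and 14.9 at MAC. Of the 5 stages analysed, it was thus highest in HB and MAC and lowest in HP. Cx3cl1, the ligand of Cx3cr1 and the only CX3C ligand, was 1.24 FPKM at the ESC stage, 6.48 at MES, 4.70 at HB, 1.18 at HP and 0.266 at MAC. Ccl20, a ligand of Ccr6, was 1.29 FPKM at the ESC stage, 4.23 at MES, 0.211 at HB, 0.0134 at HP and 0 at MAC. These last 2, like the other genes below 10 FPKM that are named for the stages, were named after their values were seen.

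From MES to HB, 3 genes were higher, against 1.29% of all genes, and 2 were lower, against 1.68%. All 3 that were higher were receptors. Cxcr7 was 0.815 FPKM at the ESC stage, 1.24 at MES, 11.9 at HB, 1.37 at HP and 0.0428 at MAC, a 9.62-fold difference between MES and HB. Ccr7, the receptor that brings lymphocytes and dendritic cells to lymph nodes, was 0.368 FPKM in MES and 2.85 in HB, the highest of its 5 values. Cxcr4 was 5.62-fold higher in HB than in MES. The genes that were lower were both ligands, Ccl20 and Cxcl16. Cxcl16, which is made as a membrane protein and binds Cxcr6, was 9.17 FPKM at the ESC stage, 7.58 at MES, 1.04 at HB, 0.179 at HP and 2.34 at MAC. Its transcripts overlap those of Zmynd15 on the opposite strand, where 16.9% of its 50-base stretches lie, and reads of that stretch could come from either gene if strand was not used.

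The study has hemogenic endothelium between HB and HP, a stage not analysed here, so that HB and HP are not adjacent. From HB to HP, 10 genes were higher, against 4.64% of all genes, and 4 were lower, against 4.60%. The genes that were lower were Cxcr4, Cxcr7, Ccr7 and Cx3cl1, which include all 3 receptors that were higher in HB than in MES. Cxcr4 differed most, with a log2 difference of -4.65. The 10 higher genes were the CC ligands Ccl2, Ccl3, Ccl4, Ccl6 and Ccl9, the receptors Ccr1, Ccr2, Cx3cr1 and Cxcr2, and Cxcl12. Cx3cr1, the fractalkine receptor of monocytes and tissue macrophages, was 0.0314 FPKM at the ESC stage, 0.0097 at MES, 0.00687 at HB, 4.53 at HP and 12.7 at MAC. Ccr2, the Ccl2 receptor of inflammatory monocytes, was 0.0174 FPKM at the ESC stage, 0 at MES and HB, 2.78 at HP and 11.2 at MAC. In HP the 7 macrophage markers summed to 19.5 FPKM and 8 neutrophil markers to 20.3, of which Mpo was 9.57, beside 1.62 and 0.161 in HB. Other markers summed higher in HP, with 6334 FPKM for erythroid, 91.1 for megakaryocyte, 67.9 for endothelial and 31.7 for fibroblast genes. In HB these sums were 5.04, 1.56, 82.9 and 22.1 FPKM. Their part in these differences was not tested.

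**Figure D2:**
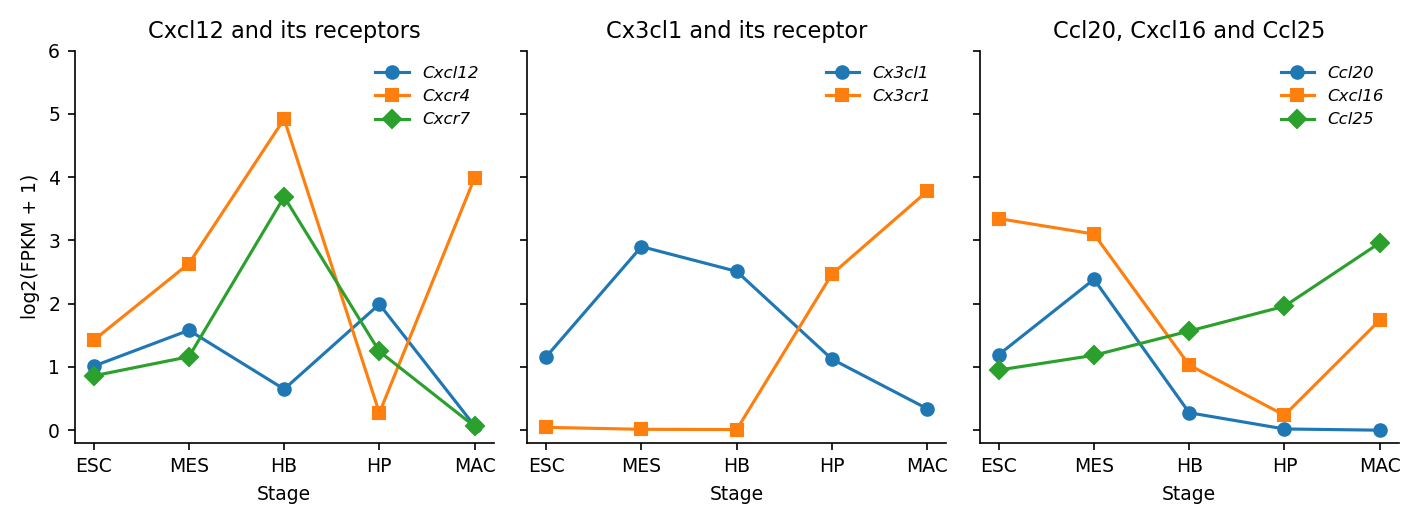
Line plots of log2(FPKM + 1) over the 5 stages for Cxcl12 with its receptors Cxcr4 and Cxcr7 (left), for Cx3cl1 with its receptor Cx3cr1 (middle) and for Ccl20, Cxcl16 and Ccl25 (right). Points are the authors' values with replicates combined and lines only join them. Cxcr4 and Cxcr7 peak in HB at 29.3 and 11.9 FPKM, Cxcl12 stays at or below 2.98 FPKM, and the curves of Cx3cl1 and Cx3cr1 cross between HB and HP.

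Pairs of a ligand and its receptor were listed where both reached 1 FPKM at the same stage. Between 5 and 8 of the 50 genes reached it in ESC, MES and HB, so that few pairs were possible there. Of 9 textbook pairs examined, Cxcl12 with Cxcr4 reached 1 FPKM together in ESC and MES, and Cxcl12 with Cxcr7 in MES and HP. Cxcl12 itself was 1.02 FPKM at the ESC stage, 1.99 at MES, 0.568 at HB, 2.98 at HP and 0.0486 at MAC, and so was below 1 FPKM in both stages with the highest Cxcr4. Cx3cl1 and Cx3cr1 were together at 1 FPKM or more in HP alone of the 5 stages. Ccl20 with Ccr6, Cxcl16 with Cxcr6, Ccl25 with Ccr9 and Cxcl2 with Cxcr2 were never together at 1 FPKM in any stage. The receptors Ccr6 and Cxcr6 did not themselves exceed 0.380 and 0.163 FPKM. The pair Ccl2 and Ccr2 was so in HP and MAC, as was Ccl3 with Ccr1. Ccl25, a thymic and gut chemokine, was the only 1 of the 50 genes with a higher value at each of the 5 stages than at the one before, with 0.933, 1.27, 1.96, 2.89 and 6.79 FPKM, and its main receptor Ccr9 did not exceed 0.0085 FPKM.

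From HP to MAC, 18 genes were higher, against 18.0% of all genes, and 2 were lower, Cxcl12 and Cxcr7, against 7.47%. The median gene was itself higher by 0.36 on the log2 scale in MAC, over 10815 expressed genes (1 FPKM on average or higher). With both stages scaled to the same upper quartile the median was -0.21 and 16 genes were higher, without Ccl25 and Cx3cr1. The 18 comprised 8 of 19 CC ligands, 2 of 4 ELR CXC ligands, 0 of 3 Cxcr3 ligands, 2 of 6 other CXC and CX3C ligands, 4 of 10 CC receptors and 2 of 8 CXC and CX3C receptors.

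The CC ligands reached the highest levels. Ccl6, which attracts macrophages and other myeloid cells, was 0.0186 FPKM at the ESC stage, 0 at MES and HB, 4.47 at HP and 4727 at MAC, where it was the 5th highest of all genes. Alone it made up 73.7% of the summed ligands in MAC. Ccl2, the main attractant of monocytes, was 0.398 FPKM at the ESC stage, 0.197 at MES, 0.0630 at HB, 3.35 at HP and 688 at MAC, and took a further 10.7%. Ccl9, a relative of Ccl6, was 0.0286 FPKM at the ESC stage, 0 at MES and HB, 12.6 at HP and 341 at MAC. Ccl4 was 0 in ESC, MES and HB, 4.001 FPKM in HP and 226 in MAC. Both Ccl4 and Ccl3 are inflammatory ligands of monocytes and macrophages. Ccl3 was 0.129 FPKM at the ESC stage, 0 at MES and HB, 10.3 at HP and 152 at MAC. Ccl12 was 0 in ESC, MES and HB, 0.337 FPKM in HP and 173 in MAC. Like Ccl7, Ccl12 is a relative of Ccl2 that binds Ccr2. Ccl7 was 0.163 FPKM at the ESC stage, 0 at MES, 0.0147 at HB, 0.828 at HP and 71.8 at MAC. The order of these ligands differed between HP, led by Ccl9 and Ccl3, and MAC, led by Ccl6 and Ccl2.

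All 7 lie in 2 blocks of CC ligand genes on chromosome 11 (GRCm38). The first block (chr11:82035577-82179812) holds Ccl2, Ccl7, Ccl11, Ccl12, Ccl8 and Ccl1 in this order, and the second (chr11:83525779-83664683) holds Ccl5, Ccl9, Ccl6, Ccl3 and Ccl4. Expression in MAC was not even along either block. In the first, Ccl2, Ccl7 and Ccl12 exceeded 10 FPKM, whereas Ccl11, which lies between Ccl7 and Ccl12, was 0, Ccl8 was 0.326 FPKM and Ccl1 was 0. In the second, only Ccl5 at the edge was below 1 FPKM, with 0.821. The neighbours Ccl9 and Ccl6 are 9.25 kb apart, and their MAC values of 341 and 4727 FPKM differed more than their HP values of 12.6 and 4.47, which had the opposite order.

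**Figure D3:**
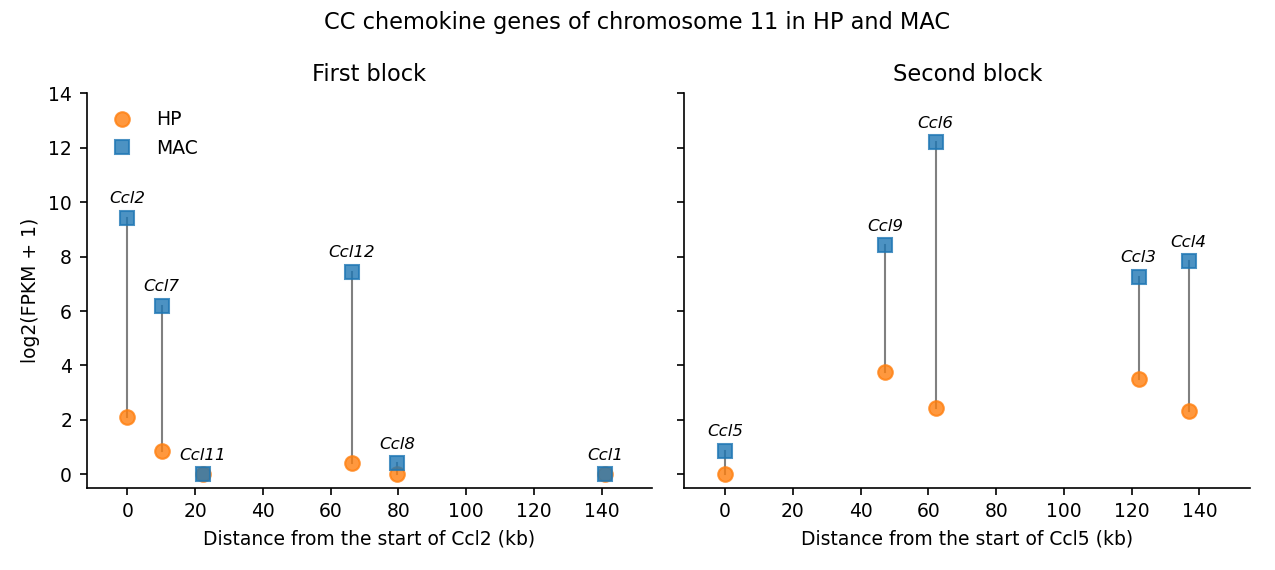
CC ligand genes of both chromosome 11 blocks, placed by the distance of their start from that of the first gene of the block in kb, with log2(FPKM + 1) in HP (circles) and MAC (squares) joined by a line. High and silent genes are mixed in the first block, where Ccl12 is 173 FPKM and the adjacent Ccl8 is 0.326, while in the second all genes but Ccl5 are above 100 FPKM in MAC.

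To show what stands in front of genes that differ this much, the 250 bases before the RefSeq start site (GRCm38.p6) are given for the ligands Ccl6, Ccl9, Ccl3 and Ccl12, for Ccl8 as the silent neighbour of Ccl12, and for the receptor Ccr1. Each reads 5' to 3' on the strand of the gene and ends at the base before the start site. Capitals mark the PU.1 core GAGGAA and the ETS letters CAGGAAG on either strand, and the TATA box letters TATAAA on the strand of the gene. PU.1 and the other ETS proteins are transcription factors, and PU.1 is needed for macrophage development.
Ccl6 (chr11:83593088-83593337, minus strand): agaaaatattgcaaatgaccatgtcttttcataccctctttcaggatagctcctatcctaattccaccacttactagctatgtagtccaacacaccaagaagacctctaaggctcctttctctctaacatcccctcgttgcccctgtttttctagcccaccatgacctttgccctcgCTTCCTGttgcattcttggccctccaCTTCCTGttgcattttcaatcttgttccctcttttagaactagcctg
Ccl9 (chr11:83578637-83578886, minus strand): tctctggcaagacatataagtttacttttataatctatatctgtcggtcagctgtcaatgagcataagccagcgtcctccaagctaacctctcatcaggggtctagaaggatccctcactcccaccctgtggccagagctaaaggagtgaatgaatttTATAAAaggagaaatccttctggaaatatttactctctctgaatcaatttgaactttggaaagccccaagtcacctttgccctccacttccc
Ccl3 (chr11:83649379-83649628, minus strand): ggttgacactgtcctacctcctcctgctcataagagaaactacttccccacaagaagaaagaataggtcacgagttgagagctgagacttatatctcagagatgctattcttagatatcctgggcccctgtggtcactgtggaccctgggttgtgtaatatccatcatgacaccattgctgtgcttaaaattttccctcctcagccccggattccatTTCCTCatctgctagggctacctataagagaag
Ccl12 (chr11:82101595-82101844, plus strand): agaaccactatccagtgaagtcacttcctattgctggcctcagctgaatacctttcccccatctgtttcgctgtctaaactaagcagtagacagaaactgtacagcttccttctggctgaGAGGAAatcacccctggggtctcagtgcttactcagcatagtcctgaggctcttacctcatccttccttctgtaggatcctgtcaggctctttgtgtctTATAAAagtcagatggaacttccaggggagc
Ccl8 (chr11:82114935-82115184, plus strand): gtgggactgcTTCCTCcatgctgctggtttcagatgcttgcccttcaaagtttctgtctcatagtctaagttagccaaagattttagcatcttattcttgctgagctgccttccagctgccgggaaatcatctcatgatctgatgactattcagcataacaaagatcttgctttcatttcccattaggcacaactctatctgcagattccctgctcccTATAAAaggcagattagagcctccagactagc
Ccr1 (chr9:123968693-123968942, minus strand): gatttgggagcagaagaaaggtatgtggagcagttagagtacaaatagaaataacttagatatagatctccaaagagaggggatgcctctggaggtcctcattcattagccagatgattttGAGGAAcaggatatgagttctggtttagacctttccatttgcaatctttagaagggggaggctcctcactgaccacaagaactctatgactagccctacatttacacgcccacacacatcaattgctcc
Ccl12 and Ccl8 had the same set of these letters, a TATAAA that began 31 and 32 bases before the start and a GAGGAA, on the opposite strand in Ccl8, 130 and 240 bases before it, although their levels in MAC were 173 and 0.326 FPKM. The promoter of Ccl6, the highest ligand, held neither GAGGAA nor TATAAA but had CAGGAAG on the opposite strand at 73 and at 47 bases before the start, each time followed by the same letters ttgcatt on the printed strand. Ccl9 had a TATAAA 92 bases before the start and Ccl3 a GAGGAA on the opposite strand 33 bases before it. Of the 34 genes of the group with a promoter in the table, GAGGAA was in 11 (32.4%, with 23.3% of all 32851 promoters), TATAAA in 9 (26.5% and 7.59%) and CAGGAAG in 8 (23.5% and 10.8%). Letters of the NF-kB consensus were, on either strand, in 10 (29.4% and 7.25%). These were Ccl1, Ccl9, Ccl20, Ccr1, Ccr3, Ccr6, Cxcl1, Cxcl2, Cxcl3 and Cxcl10, some of them high and some low or at 0 in MAC. C/EBP letters (TTGCNNAA) were in 1 (2.94% and 9.56%), AP-1 letters (TGANTCA) in 4 (11.8% and 6.75%) and GATA letters (AGATAA) in 6 (17.6% and 9.99%), again on either strand. GAGGAA and CAGGAAG share the letters AGGAA but differ in the base before them, so that no position counts for both. CAGGAAG was added after the Ccl6 sequence was seen. Such matches describe the letters and are not evidence of binding. Promoters of Ccl2, Ccl4 and Ccl7, among others, were not analysed here.

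Among the ELR ligands, Cxcl2 was 0 in ESC, MES and HB, 0.0700 FPKM in HP and 10.99 in MAC. Cxcl1 was 0.437 FPKM at the ESC stage, 0.419 at MES, 0.372 at HB, 0.501 at HP and 8.12 at MAC. Both attract neutrophils, whose 8 markers summed to 56.8 FPKM in MAC, with S100a8 at 39.1, Mpo at 0.584 and Ngp at 0.0871, and their receptor Cxcr2 was 0.471 FPKM there and 1.35 in HP. Cxcl2 shares 5.84% of its 50-base stretches with Cxcl3, which was 1.12 FPKM in MAC. The interferon-induced Cxcr3 ligands stayed low. Cxcl9 was 0 throughout, Cxcl10 did not exceed 1.24 FPKM, its value in MES, and Cxcl11 did not exceed 0.241.

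The receptors of MAC were led by Ccr1, which binds Ccl3, Ccl6 and Ccl9. Ccr1 was 0.0487 FPKM at the ESC stage, 0 at MES and HB, 1.19 at HP and 362 at MAC, where it made up 82.6% of the summed receptors and ranked 111th of all genes. Ccr1, Ccr3 and Ccr2 lie in this order on chromosome 9 (chr9:123962126-124109140), and next to them Ccr9 and Cxcr6 did not exceed 0.0085 and 0.163 FPKM in any stage. Ccr3, the eosinophil receptor of Ccl11, was 0 in the 4 earlier stages and 6.66 FPKM in MAC. Of the eosinophil markers in MAC, Prg2 was 29.6 FPKM and Epx was 0.407, and their part in the Ccr3 value was not tested. Cxcr4 was 71.3-fold higher in MAC than in HP, at 14.9 against 0.209 FPKM. Thus the leading receptor was Cxcr4 in ESC, MES and HB, Cx3cr1 in HP and Ccr1 in MAC.

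Genes that act around the chemokine receptors were counted in the same way. Of 34 such genes in the table of stages, 0 were higher and 1 lower from ESC to MES, against 3.67% and 3.86% of all genes, and 0 were called in either direction from MES to HB, against 1.29% and 1.68%. From HB to HP 7 were higher and 2 lower, against 4.64% and 4.60%. From HP to MAC 22 were higher and 0 lower, against 18.0% and 7.47%. At the last step, these were 14 of 15 signalling genes, 6 of 8 NF-kB regulators and 2 of 7 relatives outside the naming rule. Rgs1, which ends G protein signals, was 0.680 FPKM in HP and 126 in MAC, and Rac2, a GTPase of blood cell migration, was 4.46 and 64.3. Among the relatives, Pf4 (Cxcl4), a platelet chemokine, was 23.0 FPKM in HP and 274 in MAC. Tnfaip3, an inhibitor of NF-kB that is itself an NF-kB target, was 1.94 and 28.5. The decoy receptors Darc, Ccbp2 and Ccrl1 did not exceed 0.946 FPKM in any stage.

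In untreated MEFs, the leading ligand and the leading receptor were not those of MAC. The fibroblast table was normalized apart from that of the stages, so that levels are compared within it only. Untreated MEFs were dominated by Cxcl12, which was 1781 FPKM at day 12 and 3067 at day 21 and held 86.9% and 90.4% of the summed ligands. It ranked 9th and 3rd of all genes. Cxcr7, the scavenging receptor of Cxcl12, was the leading receptor with 11.2 and 22.1 FPKM, and Cxcr4 was 0.0339 and 0.736.

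For many of these genes the number of reads behind a value could be recovered. Corrected for relative depth, the values of 24 of 37 genes with enough values were whole multiples of a smallest step, within 0.05 of a whole number. The libraries had between 0.587 and 1.56 times the depth of uFIB at day 12, as read from the steps of low values. Folds below that carry a 95% interval use these reads, by the exact binomial method, and the intervals cover counting error only.

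With SL, 7 of 50 genes were higher than in uFIB on both days, against 6.21% of all genes, and 3 were lower, against 5.31%. With SFGL, 10 were higher, against 6.77%, and 4 were lower, against 7.62%. The share of lower genes was thus close to that of all genes in both, and is no result about the group. The 7 of SL were all among the 10 of SFGL, and both sets of libraries were compared with the same uFIB libraries. Higher in both were Ccl3, Ccl6, Cxcl2, Cxcl3, Ccr1, Cxcr2 and Cxcr4, and in SFGL also Ccl4, Ccr2 and Ccr3. Lower in both were Cxcl12, Cx3cl1 and Cxcl10, and in SFGL also Cxcl16.

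Cxcr4, which retains blood progenitors in the marrow, was 0.0339 FPKM at day 12 and 0.736 at day 21 in uFIB, against 85.6 and 46.2 for SL, 108.9 and 40.2 for SFGL and 9.06 and 0 for FGL. These values stood on 1, 3942, 3642 and 298 reads at day 12, and on 31, 826, 918 and 0 at day 21. The single libraries of SL and SFGL were thus above that of uFIB on both days, and SL at day 21 was 62.8-fold above uFIB (43.9 to 93.0). At day 12 the same ratio was 2522, with an interval of 452 to 99620 because uFIB had 1 read. Cxcr2, the neutrophil receptor, was 0.654 FPKM at day 12 and 0.901 at day 21 in uFIB, against 69.2 and 22.1 for SL, 49.8 and 25.4 for SFGL and 4.34 and 0.720 for FGL. SL was 106 times uFIB at day 12 (75.7 to 153) and 24.5 times at day 21 (19.1 to 32.0). Ccr1 was 0.0416 FPKM at day 12 and 0.291 at day 21 in uFIB, against 31.3 and 10.6 for SL, 24.3 and 14.7 for SFGL and 1.88 and 0 for FGL. All 3 receptors were lower at day 21 than at day 12 in both SL and SFGL.

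**Figure D4:**
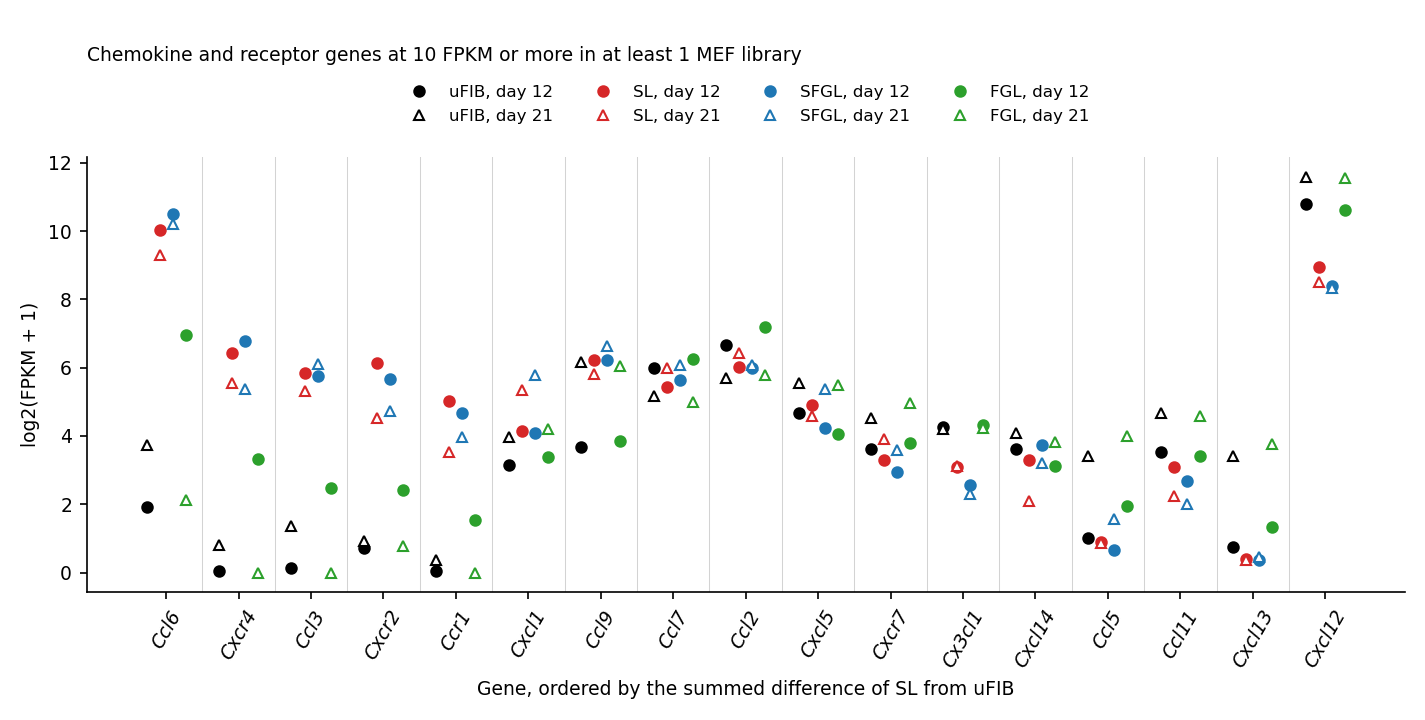
Dot plot of log2(FPKM + 1) in the 8 MEF libraries for the 17 chemokine and receptor genes that reached 10 FPKM in at least 1 of them, ordered by the summed difference of SL from uFIB over both days. Colour gives the condition, filled circles day 12 and open triangles day 21, and each point is 1 library. Ccl6, Cxcr4, Ccl3, Cxcr2 and Ccr1 are high in SL and SFGL and low in uFIB, and Cxcl12, at the right end, is highest in uFIB and FGL.

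The ligands differed in both directions. Ccl6 was 2.80 FPKM at day 12 and 12.4 at day 21 in uFIB, against 1047 and 624 for SL, 1441 and 1177 for SFGL and 122 and 3.40 for FGL. In SL and SFGL it was the leading ligand in place of Cxcl12, with between 47.1% and 69.1% of the summed ligands. Ccl3 was 0.0937 FPKM at day 12 and 1.57 at day 21 in uFIB, against 55.9 and 38.9 for SL, 52.9 and 67.8 for SFGL and 4.53 and 0 for FGL. Cxcl12 was 1781 FPKM at day 12 and 3067 at day 21 in uFIB, against 489 and 361 for SL, 332 and 320.5 for SFGL and 1573 and 3012 for FGL. Its values in SL were 27.5% and 11.8% of those in uFIB on the respective days. Cx3cl1 was 18.3 FPKM at day 12 and 17.3 at day 21 in uFIB, against 7.50 and 7.77 for SL, 4.92 and 3.93 for SFGL and 18.8 and 17.9 for FGL, so that uFIB and FGL lay together above SL and SFGL. The sum of 6 fibroblast markers in SL was 1786 FPKM at day 12 and 1267 at day 21, against 5377 and 3605 in uFIB, and its part in the lower Cxcl12 and Cx3cl1 was not tested.

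Ccl2 and Ccl7 were not called in SL or SFGL, unlike Ccl6 and Ccl3. Ccl2 was 100.2 FPKM at day 12 and 50.9 at day 21 in uFIB, against 63.6 and 84.9 for SL, 63.1 and 67.1 for SFGL and 146 and 54.1 for FGL, so that its order turned between the days. Ccl7 was 62.3 FPKM at day 12 and 35.1 at day 21 in uFIB, against 42.2 and 62.0 for SL, 48.7 and 66.1 for SFGL and 75.5 and 30.8 for FGL. Ccl12 did not exceed 0.822 FPKM in any MEF library. Cxcl1 was 7.95 FPKM at day 12 and 14.7 at day 21 in uFIB, against 16.7 and 39.99 for SL, 15.9 and 54.6 for SFGL and 9.36 and 17.5 for FGL, a difference of SL from uFIB of 0.98 and 1.38 on the log2 scale. Cxcl1 and Cxcl5 are both ELR ligands that draw neutrophils. Cxcl5 was 24.6 FPKM at day 12 and 45.5 at day 21 in uFIB, against 29.2 and 22.8 for SL, 17.9 and 40.4 for SFGL and 15.8 and 43.8 for FGL, with no condition apart from the others. Cxcl14 was 11.3 FPKM at day 12 and 16.1 at day 21 in uFIB, against 8.89 and 3.27 for SL, 12.3 and 8.21 for SFGL and 7.63 and 13.2 for FGL. Cxcr7 was 11.2 FPKM at day 12 and 22.1 at day 21 in uFIB, against 8.93 and 14.1 for SL, 6.70 and 11.1 for SFGL and 12.8 and 30.5 for FGL. It was thus lower in SL and SFGL than in uFIB of the same day, by less than the limit of 1 on the log2 scale.

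The order of the receptors within each table differed from that in MAC. In SL and SFGL the 2 leading receptors were Cxcr4 and Cxcr2, whereas in MAC Ccr1 led. Levels are not compared across the tables, which were normalized separately. Cx3cr1 did not exceed 0.0590 FPKM in any MEF library. Markers of other blood cells were high in the same SL and SFGL libraries. The 8 neutrophil markers summed to between 9317 and 35986 FPKM in SL and SFGL and to 13.1 and 248 in uFIB, with Ngp at 10714 in SL at day 12. The 5 mast cell and eosinophil markers summed to between 2288 and 11002, against 2.76 and 2.67. The macrophage markers, of which 9 of 10 were in the table, summed to between 1154 and 2784 in SL and SFGL and to 24.7 and 38.7 in uFIB. Of these, in uFIB and SL at day 12, Lyz2 was 14.6 and 2525 FPKM, Itgam 0.0366 and 156, Cd14 6.30 and 50.2, Cd68 2.93 and 26.2, Mpeg1 0.343 and 19.7, and Emr1 0.0359 and 5.35. Csf1r, Mrc1 and Fcgr1 did not exceed 1.92, 0.573 and 0.146 FPKM in any library. The part of these cell types in the receptor values, and in the 31 reads of Cxcr4 in uFIB at day 21, was not tested. Of the 9 pairs, Cxcl12 with Cxcr7 was at 1 FPKM or more in all 8 libraries, Cxcl12 with Cxcr4 and Ccl3 with Ccr1 were in 5, and Cxcl2 with Cxcr2 was in 4.

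Both libraries of SFGL were also set against those of SL, a comparison added after the values were seen. On both days together, 0 genes were higher and 0 lower in SFGL than in SL, where 0.0592% and 0.0543% of all genes were, and with 1 library each there is no test of it. Ccr3 had more reads in SFGL, with 101 reads in SFGL and 63 in SL at day 12 (2.21-fold, 1.60 to 3.07) and 51 and 13 at day 21 (3.07-fold, 1.65 to 6.16). Its level was 1.58 and 0.717 FPKM at day 12 and 1.17 and 0.381 at day 21. The eosinophil marker Epx was higher in SFGL too, with 2109 FPKM in SFGL and 447 in SL at day 12 and 2365 and 517 at day 21. In the other direction, Cxcl10 had 1.68 FPKM at day 12 and 1.61 at day 21 with SL, against 0.538 and 0.315 with SFGL. Both genes were named after their values were seen.

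The library labelled FGL was compared with uFIB in the same way. On both days together, 0 genes of the group were higher and 0 lower, against 0.0247% and 0.00987% of all genes. At day 12, though, it held the genes that were high in SL at a fraction of their level. Ccl6, Ccl3, Cxcr4, Cxcr2 and Ccr1 were at between 6.01% and 11.7% of SL, with a median of 8.10%, and the summed neutrophil markers were at 8.85%. Ccr3 did not follow, with 42 reads in FGL and 63 in SL, or 0.669 and 0.717 FPKM, while the mast cell and eosinophil markers were at 24.2% of SL. At day 21 the 5 genes were at no more than 3.26% of SL. Cxcr4, Ccl3 and Ccr1 had 0 reads there, and 0 reads of Cxcr4 allow up to 0.173 FPKM in that library.

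**Figure D5:**
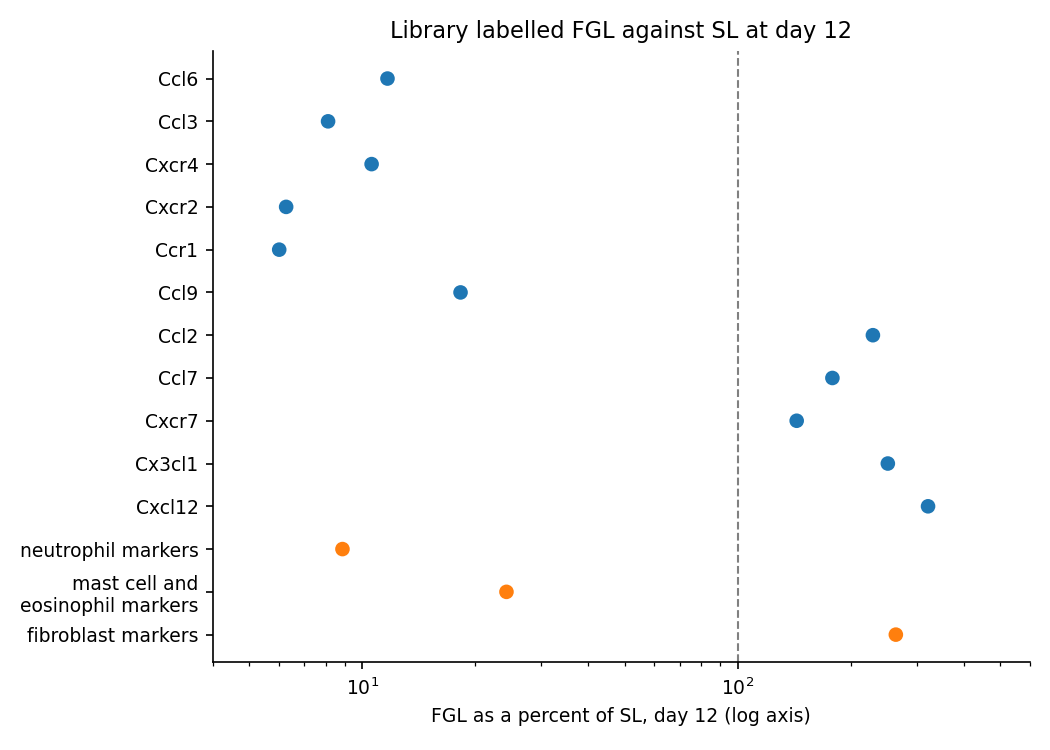
Values of the library labelled FGL at day 12 as a percent of SL at day 12, on a log axis, for 11 chemokine and receptor genes (blue) and for summed markers of 3 cell types (orange), with a dashed line at 100%. The genes high in SL and the neutrophil markers lie near 10%, and Ccl2, Ccl7, Cxcr7, Cx3cl1, Cxcl12 and the fibroblast markers lie above 100%.

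Some genes differed more between the days than between uFIB and FGL. In uFIB and in FGL alike, 4 of 50 genes were higher at day 21 than at day 12, against 0.745% of all genes, and 0 were lower, against 0.479%. This count was made after the values were seen. Cxcl13, the B cell attractant, was 0.686 FPKM in uFIB and 1.54 in FGL at day 12, and 9.71 and 12.7 at day 21. In SL and SFGL it stayed between 0.282 and 0.369 FPKM on both days. Ccl5, which binds Ccr1 and Ccr3 among others, was 1.01 FPKM in uFIB and 2.87 in FGL at day 12, and 9.57 and 15.0 at day 21. Its value in uFIB was 9.44-fold higher at day 21 (4.15 to 26.5, on 81 and 6 reads). Ccl11, the eosinophil attractant eotaxin, was 10.5 FPKM in uFIB and 9.77 in FGL at day 12, and 24.3 and 22.9 at day 21, whereas SL and SFGL had 7.50 and 5.44 at day 12 and 3.74 and 3.01 at day 21. Ccl9 was 11.8 FPKM in uFIB and 13.4 in FGL at day 12, and 71.5 and 65.6 at day 21. Since SL and SFGL had between 55.6 and 97.9 FPKM of Ccl9 on both days, their log2 differences from uFIB were 2.54 and 2.56 at day 12, and -0.36 and 0.45 at day 21. A comparison at day 12 alone would thus count Ccl9 with Ccl6, its neighbour on chromosome 11, and the comparison at day 21 would not.

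Of 36 genes that act around the receptors in the fibroblast table, 15 were higher and 1 lower in SL than in uFIB on both days, against 6.21% and 5.31% of all genes. In SFGL 15 were higher and 2 lower, against 6.77% and 7.62%. Of the 17 signalling genes, 10 were higher in SL and 11 in SFGL. Plcb2, a phospholipase downstream of chemokine receptors, was 0.188 FPKM in uFIB and 42.7 in SL at day 12. The NF-kB regulators were higher for 2 of 8 in SL and 1 of 8 in SFGL, Tnfaip3 in both and Nfkbia in SL. The decoy receptor Ccrl1 (Ackr4) was lower in both, with 5.48 FPKM in uFIB and 0.495 in SL at day 12 and 14.3 and 2.22 at day 21. The platelet chemokine Pf4 was 0.144 and 23.6 FPKM in uFIB and SL at day 12. In FGL 0 of the 36 genes were called in either direction, against 0.0247% and 0.00987%.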

How the data were processed

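RNA-seq of 10 stage samples and 8 MEF libraries was used, grouped by the labels. The values are FPKM as deposited. Per the methods, the SOLiD reads of the stages were mapped by the authors to mm10 using SHRiMP, reads with several positions and Picard duplicates were left out, and Cufflinks was run on the combined replicates, so that near-identical copies and very high genes may be understated. The submitters' processing notes name TopHat and Cufflinks for the MEFs, and versions are not given in the sources used here. The depth of the stages is unknown. Another 1 column, of hemogenic endothelium, a stage without a sample here, was not used.

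FPKM of start sites was summed per gene. Differences were taken on log2(FPKM + 1), which understates those of low genes, with Python 3.11.15, NumPy 2.4.6 and pandas 2.3.3. No replicate values were held, so no test was run. All genes of the group at 10 FPKM or more in at least 1 stage or library were named with every value, except 1 that is counted but not reported here. Genes, lists and pairs were chosen with earlier results of these data known. Positions are those of the authors' table, counted from 1. Transcripts (GENCODE M21) were searched for shared stretches of 50 bases. Of the 50 genes, 32 shared none with another gene and 3 shared over 20%. Reads were recovered from steps of low FPKM values, and the calls and steps were tested on simulated data. Promoters are from RefSeq, with 34 of 50 genes matched. Alternatives were pseudocounts of 0.1 and 0.001, limits of 1 and 5 FPKM, upper quartile scaling, the mean of both uFIB libraries and a total without the 20 highest genes.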

Additional observations from a re-analysis of the deposited data

Results flagged for a closer look

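Ccl3 and Ccl6 differed between FGL and uFIB in opposite directions on the 2 days, each by more than the limit of 1 on the log2 scale. Ccl3 was higher in the library labelled FGL at day 12 by 2.34 and lower at day 21, with a log2 difference of -1.36. Ccl6 was higher by 5.02 at day 12 and lower at day 21, with a difference of -1.61. The difference between the days was not tested, because each day has 1 library per condition. Beside these values, the neutrophil markers summed to 3186 FPKM in FGL and 13.1 in uFIB at day 12, and to 13.9 and 248 at day 21, and their part in the opposite signs was not tested.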

How the results depend on the processing

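No paired analysis was possible because each stage has 1 value in which the replicates were combined and each MEF condition has 1 library per day. For the same reason no replicate could be left out. Under the alternatives, 54 counts and shares stayed within 1.5 times the reported value and 24 counts did not. For named genes, only log2 differences of at least 1 were rerun, with a pseudocount of 0.1 and with upper quartile scaling. Of these reruns, 145 stayed at 1 or more and 1 did not. The reruns with a pseudocount are no check of the sign, because a pseudocount cannot turn it. Upper quartile scaling can turn a sign and turned none of these. It is a weak check, because smaller differences, which turn more easily, were not rerun. With a pseudocount of 0.1, which counts differences between low values, 5 genes were higher and 3 lower from ESC to MES, 4 lower from MES to HB, 17 higher from HB to HP and 6 lower from HP to MAC, 13 were higher and 7 lower in SL, and 1 was higher and 2 lower in SFGL than in SL. With it, 1 was lower at day 21 in uFIB and FGL. The comparison of SFGL with SL and that of the days, with their alternatives, were added after the data were seen. With a pseudocount of 0.001 and a limit of 1 FPKM, 4 genes were lower from MES to HB and 4 from HP to MAC. With a limit of 5 FPKM, 1 was lower from MES to HB, 2 were higher and 2 lower from HB to HP, 0 were lower from HP to MAC, and 5 were higher and 2 lower in SFGL. Against the mean of both uFIB libraries, 6 were lower in SL and 7 in SFGL. At 5 FPKM or more were 1 gene in ESC, 3 in MES, 2 in HB and 2 in HP, whereas the 16 of MAC stayed within 1.5 times. With upper quartile scaling, the difference of Cx3cr1 from HP to MAC was 0.65. The counts of higher genes from MES to HB and from HP to MAC stayed within 1.5 times under each alternative run. Genes under about 1 FPKM limit these counts, since the depth of the stages is unknown.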
